A study of Homo sapiens with 6 samples.

Results

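The genes described here encode lysosomal hydrolases, lysosomal membrane proteins and the vacuolar proton pump (V-ATPase). They comprise 38 listed genes and the 17 genes whose symbol begins with ATP6V on the array, 55 of the 12165 genes read by a probe set that names 1 gene. All 55 were measured. The cells were labelled LNCaP, a human prostate cancer line that responds to androgen, and every array of the study came by its label from this single line. They received 20 µM gedunin, a limonoid of the neem family, or DMSO, its solvent, for 6 h, with 3 Affymetrix arrays of each numbered as biological replicates. Because 1 control array did not read like LNCaP, gedunin 1 to 3 were compared with DMSO 1 and 2, and the array labelled DMSO 3 is given apart.

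The lysosome is the acidic compartment in which cells break down proteins, glycans, nucleic acids and lipids. Its hydrolases need low pH, which the V-ATPase supplies by pumping protons: the cytosolic V1 sector splits ATP and the membrane V0 sector carries the protons. Many lysosomal genes carry a short palindromic element near their start site, called CLEAR, which is bound by TFEB, TFE3 and MITF. These factors enter the nucleus when the kinase mTORC1 is inactive at the lysosomal surface.

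The array labelled DMSO 3 lacked prostate transcripts. The summed intensity of 8 measured luminal prostate markers was 207 on it, against 13217 to 13864 with gedunin and 14140 and 14415 on DMSO 1 and 2. Of 8 measured B cell and antigen presentation markers, all 8 were at least 8-fold above DMSO 1 and 2, with a sum of 14997 against 163 to 175 on the other arrays. The sum of 8 monocyte and macrophage markers was 209 there and 171 to 181 elsewhere. Upper quartiles of intensity lay between 128 and 146 over the 6 arrays, and array medians between 31.1 and 32.0. Intensities are on a linear scale after RMA, and no detection call was used. Fold changes compare a probe set only with itself; marker sums describe an array, and the array median serves only as a mark of dimness. Log2 fold changes are gedunin over DMSO 1 and 2 with limma's moderated standard error (n = 3 and 2 arrays). Adjusted p-values are limma's with Benjamini-Hochberg adjustment over all probe sets, and a gene was called at an adjusted p under 0.05. Fits without DMSO 1 or DMSO 2 rest on 1 control array and called fewer of all genes than the fit on 5 arrays. Nothing beyond the replicate numbers says how the cultures were kept apart, so each p-value reflects only how far these arrays scatter, which may be technical.

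Gedunin raised some of these genes and lowered others, none by 2-fold on the probe set used for the gene. Of the 55 members, 3 rose and 4 fell, which is 12.7% of the members, while 17.6% of all genes were called (8.22% higher and 9.35% lower). TPP1 and GLA, both hydrolases, and the V1 subunit gene ATP6V1C1 rose. The lipid-handling genes LIPA and GM2A, the glycosidase gene IDUA and the V0 subunit gene ATP6V0E2 fell. The median log2 fold change was -0.025 over the members and -0.017 over all genes, and the median size without sign was 0.14 in both. In 25 members the arrays of the groups did not overlap, with gedunin above in 12 and below in 13, against 46.2% of all genes (20.2% above, 26% below). On the probe set used for the gene, changes of at least 2-fold were found for 0 members by limma's estimate and for 2.43% of all genes. Another probe set of TPP1 rose by 1.16 on the log2 scale. In RNA from whole cultures, fewer cells that express a gene and less RNA per cell cannot be told apart.

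For the 48 members that were not called, the size of a missed change was bounded by the 95% confidence interval of each log2 fold change. The interval lay within a 1.5-fold change in either direction for 46 of them, or 95.8%, against 96.1% of the 10027 uncalled genes on the array. The other 2 were CTSZ (interval -0.05 to 0.59) and ATP6V1G2 (-0.04 to 0.62), both read close to the array median. These intervals are not adjusted for the number of genes. They hold only for the probe set used for each gene. Another probe set was called lower for CTSB (-0.45), LAMP2 (-0.51) and SCARB2 (-0.57). TFEB, ARSA, ARSB and ATP6V1B1 read below the median of the array on all 5 arrays, a range in which RMA compresses folds.

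**Figure D1:**
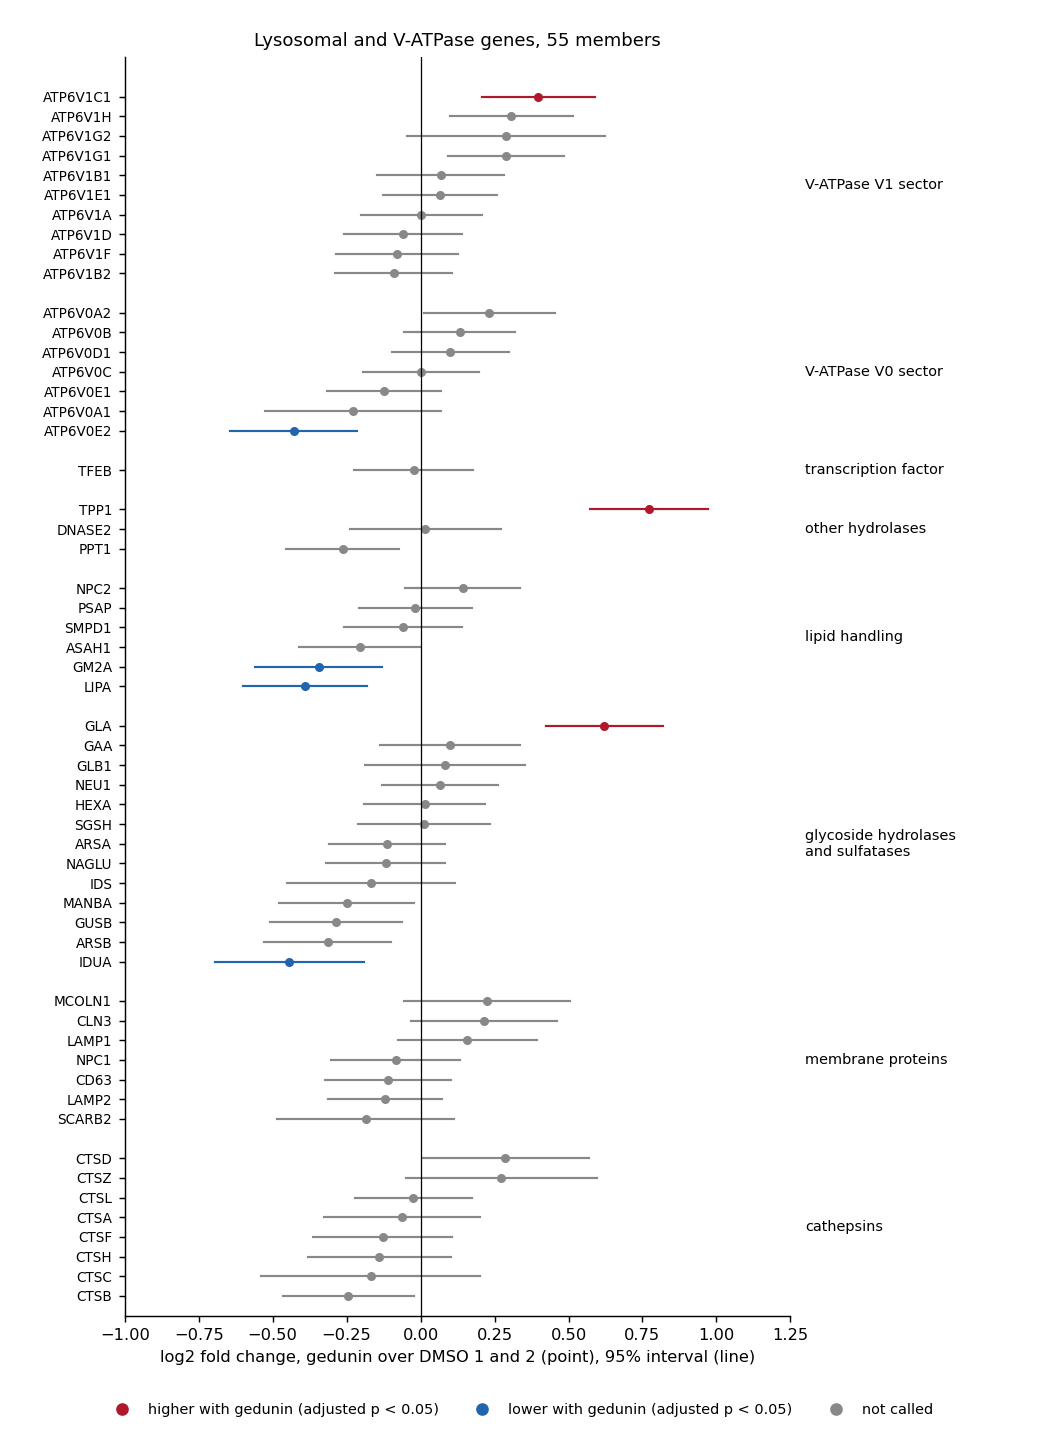
Log2 fold change of each of the 55 members, gedunin over DMSO 1 and 2 (points), with 95% confidence intervals (lines), grouped by role; red and blue mark genes called higher or lower. The 3 red points are TPP1 (0.77), GLA (0.62) and ATP6V1C1 (0.40), and most other intervals cross 0.

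TPP1 encodes tripeptidyl peptidase 1, which removes tripeptides from the amino end of proteins in the lysosome and is lost in a childhood neuronal ceroid lipofuscinosis. Its intensity (probe set 200742_s_at) was 1111, 1128 and 1168 on the gedunin arrays and 699 and 633 on DMSO 1 and 2. All 3 treated arrays stood above both controls, and the array labelled DMSO 3 was lower still at 362. The log2 fold change was 0.77 ± 0.09, or 1.71-fold (limma adjusted p = 3.06e-04), the largest among the members. TPP1 was called in each of the 5 fits that left out 1 array, at 0.70 to 0.84. Its 3 other probe sets also rose, by 0.82, 0.85 and 1.16.

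GLA encodes alpha-galactosidase A, the glycolipid-cleaving enzyme that is missing in Fabry disease. It read 276, 292 and 303 with gedunin and 192 and 185 on DMSO 1 and 2 (probe set 214430_at). The groups did not overlap, and the difference was 0.62 ± 0.09, or 1.54-fold (limma adjusted p = 0.00110). GLA too was called in every fit that left out 1 of the 5 arrays, at 0.59 to 0.66. The array labelled DMSO 3 read 425, above all others, so with 6 arrays the value was 0.23 ± 0.34 (limma adjusted p = 0.806). GLA has 1 probe set that names it alone.

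IDUA encodes alpha-L-iduronidase, which trims dermatan and heparan sulfate. It read 82.2, 94.4 and 79.8 with gedunin and 106 and 127 on DMSO 1 and 2 (probe set 205059_s_at), and 37.5 on the array labelled DMSO 3. The treated arrays lay below both controls, with a log2 fold change of -0.44 ± 0.11 (limma adjusted p = 0.0255). The call held without DMSO 1 and without gedunin 2. It was lost without DMSO 2 (adjusted p = 0.227), gedunin 1 (0.0743) or gedunin 3 (0.0644). The other 2 probe sets of IDUA gave -0.06 and -0.02, and neither was called. With all 6 arrays the sign turned, at 0.10 ± 0.47 (limma adjusted p = 0.946).

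LIPA encodes lysosomal acid lipase, which frees cholesterol and fatty acids from lipoprotein esters. Its values were 353, 319 and 364 with gedunin against 442 and 461 on DMSO 1 and 2 (probe set 201847_at), with 754 on the array labelled DMSO 3. LIPA fell by 0.39 ± 0.09 on the log2 scale (limma adjusted p = 0.0195), and the groups did not overlap. The call held without gedunin 1 and without gedunin 3. Adjusted p was 0.0608 without gedunin 2, 0.0885 without DMSO 1 and 0.137 without DMSO 2.

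GM2A encodes the GM2 activator, a cofactor that presents ganglioside to beta-hexosaminidase. It read 337, 354 and 304 with gedunin and 415 and 425 on DMSO 1 and 2 (probe set 212737_at), with 714 on the array labelled DMSO 3. All treated arrays were lower than both controls, and GM2A fell by 0.34 ± 0.10 on the log2 scale (limma adjusted p = 0.0369). Of its 6 probe sets, 3 fell and 0 rose, and the 3 that were not called gave -0.44, -0.26 and -0.02. The call held without gedunin 2 and was lost without any other array, with adjusted p between 0.0724 (gedunin 1) and 0.190 (DMSO 2). Adjusted p was 0.0873 without gedunin 3 and 0.146 without DMSO 1.

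The other 4 lipid-handling members were not called. PSAP, the saposin precursor, had -0.02, and SMPD1, acid sphingomyelinase, had -0.06. NPC2, which hands cholesterol to NPC1, had 0.14, and ASAH1, acid ceramidase, had -0.21. Over the 6 genes of this group the median was -0.13.

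**Figure D2:**
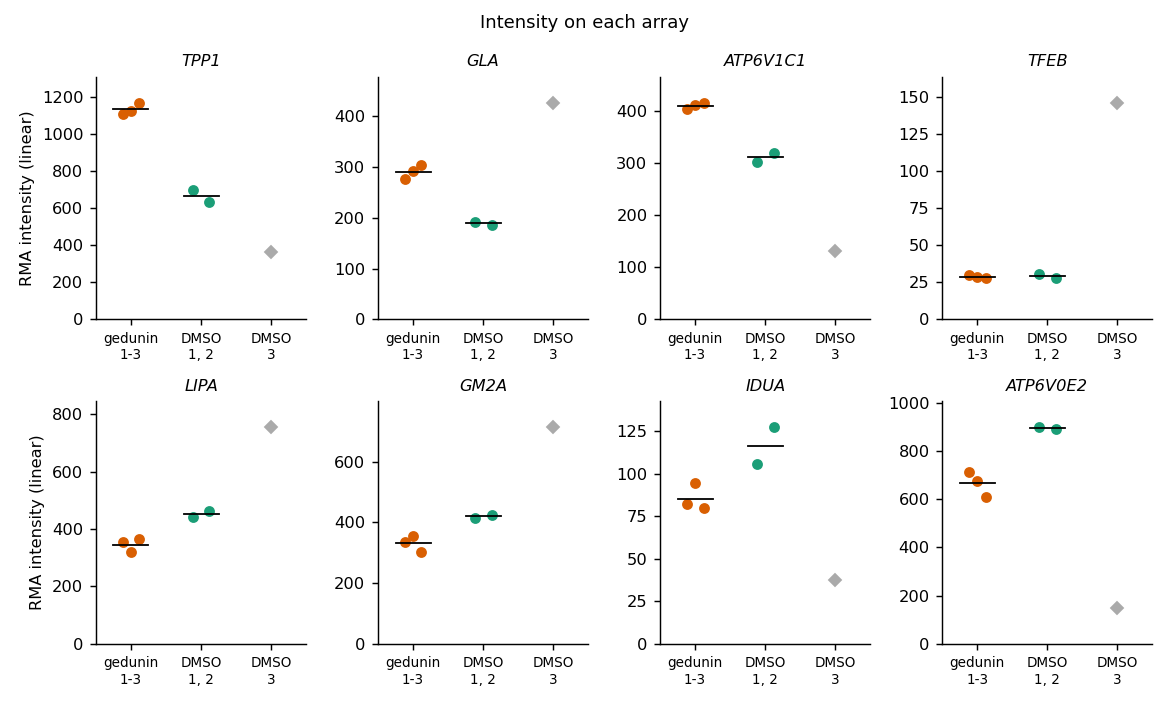
RMA intensity on a linear axis from 0 for the 7 called members and TFEB, with each array as a point, the geometric mean of gedunin 1 to 3 and of DMSO 1 and 2 as a bar, and the array labelled DMSO 3 as a grey diamond. The treated and control points separate for the 7 called genes, while the grey diamond lies outside the range of the other 5 arrays in all 8 panels.

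Cathepsins are the lysosomal proteases, and none of the 8 measured was called by limma. An unadjusted limma p under 0.05 was found for 2 of the 8 and for 3692 of all 12165 genes. With 17.6% of all genes called, a count of 0 among so few genes does not set them apart. CTSB, a cysteine protease, read 522, 591 and 514 with gedunin and 612 and 672 on DMSO 1 and 2, at -0.24 ± 0.10 (limma adjusted p = 0.142). CTSB arrays did not overlap between the groups, and 1 of its 4 probe sets was called lower, at -0.45 (adjusted p = 0.0272). CTSD, the aspartic protease, read 203, 159 and 189 against 136 and 165. Its gedunin 2 value fell between the controls, and the difference was 0.29 ± 0.13 (limma adjusted p = 0.178). CTSL, another cysteine protease, read 289, 292 and 272 against 279 and 300, with overlapping groups and a difference of -0.02 ± 0.09 (interval -0.22 to 0.17). The exopeptidase genes CTSA (-0.06), CTSC (-0.17), CTSH (-0.14) and CTSZ (0.27) and the papain-like CTSF (-0.13) were not called.

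Membrane proteins of the lysosome were likewise not called by limma (0 of 7), against 17.6% of all genes called, which likewise does not set so small a group apart. An unadjusted limma p under 0.05 was found for 0 of the 7 and for 3692 of all 12165 genes. LAMP1, a heavily glycosylated coat protein, read 2025, 1835 and 1690 with gedunin and 1564 and 1749 on DMSO 1 and 2. Gedunin 3 fell below DMSO 2, and the difference was 0.16 ± 0.10 (limma adjusted p = 0.391). LAMP2, the related receptor of chaperone-mediated autophagy, read 502, 502 and 519 against 534 and 570, which do not overlap, a difference of -0.12 ± 0.09 (limma adjusted p = 0.434). The cholesterol exporter NPC1 read 225, 220 and 217 against 255 and 215, which overlap, at -0.08 ± 0.10. MCOLN1, a calcium channel of the lysosome, read 58.3, 74.96 and 58.0 against 57.5 and 51.1, at 0.22 ± 0.13 (limma adjusted p = 0.300). The treated arrays of MCOLN1 stood above the controls, 2 of them by less than the gap between the controls. The tetraspanin CD63 had -0.11, the enzyme receptor SCARB2 -0.19 and CLN3, another ceroid lipofuscinosis gene, 0.21.

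LAMP2 and SCARB2 each had a probe set that differed from the one used. For LAMP2, a second probe set read 171, 157 and 168 with gedunin and 238 and 232 on DMSO 1 and 2, a fall of 0.51 ± 0.09 on the log2 scale (limma adjusted p = 0.00339). The third LAMP2 probe set had 0.03 ± 0.11. LAMP2 is spliced into alternative last exons, but which transcript each probe set reads was not analysed here. For SCARB2, a dim probe set, at 19.6 to 24.5 with gedunin and 31.7 and 34.9 on DMSO 1 and 2, fell by 0.57 ± 0.11 on the log2 scale (adjusted p = 0.00715), and the third had -0.32 ± 0.12 (adjusted p = 0.0981). In all, 112 probe sets named a member alone, 6 rose and 9 fell, and 0 members had probe sets called in both directions. Of the 6 that rose 4 read TPP1, and of the 9 that fell 3 read GM2A. The share of all probe sets called is not given here, while 17.6% of all genes were called. Of the 22 uncalled members with several probe sets, 3 had a called one, namely CTSB, LAMP2 and SCARB2.

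**Figure D3:**
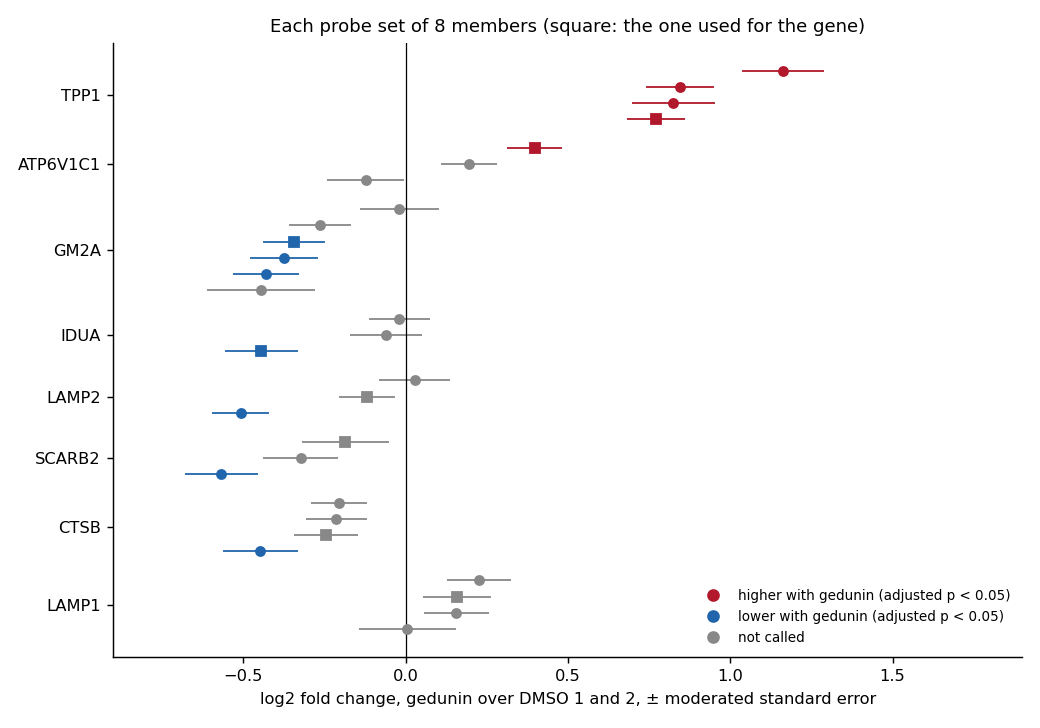
Log2 fold change with moderated standard error for every probe set of 8 members, with a square for the probe set used for the gene and a circle for the others. All 4 probe sets of TPP1 rose, 3 of 6 for GM2A fell, and for LAMP2 the called probe set (-0.51) lies apart from the other 2.

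Of the 13 glycoside hydrolases and sulfatases, GLA rose and IDUA fell (15.4%, against 17.6% of all genes called), and the group median was -0.11. In GUSB, MANBA and ARSB, and in the protein depalmitoylase gene PPT1, all gedunin arrays were below both controls and the unadjusted 95% interval excluded 0, but the adjusted p missed the threshold. HEXA, the alpha chain of beta-hexosaminidase, had 0.01 and SGSH, heparan sulfamidase, 0.01, while the beta-galactosidase gene GLB1 had 0.08. The acid alpha-glucosidase gene GAA had 0.10 and the sialidase gene NEU1 0.06. Beta-glucuronidase GUSB had -0.29 ± 0.10 (limma adjusted p = 0.0905) and beta-mannosidase MANBA -0.25 ± 0.10 (adjusted p = 0.148). The sulfatase genes ARSA (-0.11), ARSB (-0.31, adjusted p = 0.0536) and IDS (-0.17) and the glucosaminidase gene NAGLU (-0.12) were not called. PPT1 read 793, 777 and 757 against 910 and 953, at -0.26 ± 0.09 (limma adjusted p = 0.0690). DNASE2, the acid DNase, had 0.02.

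The V-ATPase genes showed 1 rise and 1 fall among 17, or 11.8%, against 17.6% of all genes called, with a median of 0.07. ATP6V1C1 encodes the C1 subunit, which joins the V1 and V0 sectors when the pump assembles. It read 404, 412 and 416 with gedunin and 303 and 320 on DMSO 1 and 2 (probe set 202874_s_at), with 131 on the array labelled DMSO 3. The groups did not overlap, and ATP6V1C1 rose by 0.40 ± 0.09 (limma adjusted p = 0.0109). Without DMSO 1 the adjusted p was 0.0992 and without DMSO 2 it was 0.0511, while the call held without any 1 gedunin array. Its other 2 probe sets gave 0.20 and -0.12, neither called.

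ATP6V1H and ATP6V1G1 came close to the threshold. The first, which encodes the regulatory H subunit, read 702, 764 and 780 with gedunin and 630 and 580 on DMSO 1 and 2. Its groups did not overlap, and the difference was 0.31 ± 0.09 (limma adjusted p = 0.0531). ATP6V1G1, which encodes a subunit of the peripheral stalk, read 1372, 1294 and 1267 against 1097 and 1049, at 0.29 ± 0.09 (limma adjusted p = 0.0540). The catalytic subunit gene ATP6V1A had 0.00 ± 0.09 (interval -0.20 to 0.21) and the nucleotide-binding ATP6V1B2 -0.09 ± 0.09. ATP6V1D (-0.06), ATP6V1E1 (0.07), ATP6V1F (-0.08), ATP6V1B1 (0.07) and ATP6V1G2 (0.29) were not called.

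In the V0 sector, ATP6V0E2, which encodes an isoform of the small e subunit, read 714, 677 and 608 with gedunin and 897 and 893 on DMSO 1 and 2 (probe set 213587_s_at). The treated arrays were all lower, and ATP6V0E2 fell by 0.43 ± 0.10 on the log2 scale (limma adjusted p = 0.0140). The call was lost without DMSO 1 (adjusted p = 0.0961) or DMSO 2 (0.0893). The array labelled DMSO 3 read 148, and with all 6 arrays the value was 0.44 ± 0.74 (limma adjusted p = 0.829). Its paralogue ATP6V0E1 had -0.12 ± 0.09. ATP6V0D1, the d1 subunit that links the stalk to the proton ring, read 1145, 1080 and 1041 against 1011 and 1019, at 0.10 ± 0.09 (limma adjusted p = 0.537). The ring subunit gene ATP6V0C had 0.00 ± 0.09, and ATP6V0B (0.13), ATP6V0A1 (-0.23) and ATP6V0A2 (0.23) were not called.

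TFEB, the best known transcription factor of these genes, read 29.9, 28.8 and 27.9 with gedunin and 30.7 and 28.0 on DMSO 1 and 2. The groups overlapped, and the difference was -0.02 ± 0.09 (interval -0.22 to 0.18). All 5 values lay under the array medians of 31.1 to 31.8, so whether the probe set read TFEB above background cannot be told without detection calls. The array labelled DMSO 3 read 146. A second TFEB probe set was not called either.

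The promoters of these genes were searched for letters of the CLEAR element, which TFEB and its relatives are known to bind. RefSeq windows (GRCh38.p14) of 250 bases before and 50 after each start were matched for 41 members, and a gene was counted where any of its windows held the letters on either strand. The 41 members had 61 windows, more per gene than the 35116 windows of the background, and this was not adjusted for. That background was all 27305 genes with a window, on the array or not. The core CACGTG was found in 14 of the 41 (34.1%), against 8.77% of the 27305 genes. The longer TCACGTGA, which contains that core, was found in 7 (17.1%) against 1.18%, and TCACGTGA with a G before and a C after it in 3 (7.32%) against 0.421%. Of the 7 members with TCACGTGA, limma called 0 (17.6% of all genes were called), with log2 fold changes from -0.06 for CTSA to 0.29 for ATP6V1G1 and a median of 0.16. Of the 14 with CACGTG, 1 was called, ATP6V0E2, which fell. The sites of the 7 are shown to make the element visible, 5′ to 3′ on the strand of the gene, with TCACGTGA in capitals.
ATP6V0D1 (chr16:67481199-67481228, minus strand): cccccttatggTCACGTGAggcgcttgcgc
ATP6V1G1 (chr9:114587699-114587728, plus strand): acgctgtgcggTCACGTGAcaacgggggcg
CLN3 (chr16:28492058-28492087, minus strand): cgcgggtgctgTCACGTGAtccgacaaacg
CTSA (chr20:45891298-45891327, plus strand): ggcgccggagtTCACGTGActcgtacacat
GAA, upstream copy (chr17:80101493-80101522, plus strand): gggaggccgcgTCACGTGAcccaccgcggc
GAA, downstream copy (chr17:80101538-80101567, plus strand): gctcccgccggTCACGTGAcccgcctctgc
LAMP1, upstream copy (chr13:113297199-113297228, plus strand): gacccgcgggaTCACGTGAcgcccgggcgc
LAMP1, downstream copy (chr13:113297226-113297255, plus strand): cgcggcgcagcTCACGTGAcaagcgctgcc
MCOLN1, upstream copy (chr19:7522571-7522600, plus strand): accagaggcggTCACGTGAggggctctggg
MCOLN1, downstream copy (chr19:7522598-7522627, plus strand): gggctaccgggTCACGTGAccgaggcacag

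TPP1 and GLA, the members with the largest rises, held no CACGTG in their windows. The nearest stretch in TPP1 matched that longest form (G, TCACGTGA, C) but for the substitution G6A, counted from 1 at its 5′ end, and lay from base -10 to base -1 before the start. At most 1 such mismatch was found in 12 of the 41 members and in 2.48% of all genes. In GLA the nearest stretch differed by G1C and C3T. At most 2 mismatches were found in 23 of the 41 members (56.1%) and in 12.3% of all genes. Of those 23 members limma called GLA and TPP1 higher and LIPA lower, against 17.6% of all genes called. The 250 bases before each start are shown on the strand of the gene, with the nearest stretch in capitals, because TPP1 and GLA carry the clearest rises. A match describes the letters of the window and shows no binding.
TPP1 (chr11:6619423-6619672, minus strand): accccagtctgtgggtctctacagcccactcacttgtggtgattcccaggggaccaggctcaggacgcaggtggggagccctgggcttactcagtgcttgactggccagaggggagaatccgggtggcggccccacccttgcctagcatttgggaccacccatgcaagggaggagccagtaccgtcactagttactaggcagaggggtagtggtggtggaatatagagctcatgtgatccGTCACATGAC
GLA (chrX:101407926-101408175, minus strand): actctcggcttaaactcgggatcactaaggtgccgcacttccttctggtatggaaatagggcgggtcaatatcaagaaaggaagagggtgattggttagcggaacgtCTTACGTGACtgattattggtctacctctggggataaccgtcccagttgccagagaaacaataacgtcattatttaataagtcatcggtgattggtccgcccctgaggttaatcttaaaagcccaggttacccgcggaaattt

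Other motifs, and the search with mismatches, were added after the values were seen. The antioxidant response core TGACNNNGC was in 19 of 41 members (46.3%) and 16.1% of all genes. Among those 19 limma called GLA higher and IDUA, LIPA and ATP6V0E2 lower. With 17.6% of all genes called, this does not set the 19 apart. The heat shock element core was in 0 of 41 members and 0.608% of all genes. The amino acid response core TGATGNAA was in 1 member, DNASE2, and in 4.46% of all genes.

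A further list of 24 genes held MiT factors, the machinery that senses nutrients on the lysosome, and the MITF target GPNMB. Of these 15 were measured, and most of the measured genes were called. MiT is the family of TFEB, TFE3 and MITF, and the RRAG and LAMTOR genes encode the Rag GTPases and the Ragulator scaffold that recruit mTORC1. Of 15 measured genes, 6 rose and 3 fell, or 60.0%, with a median of 0.20, against 17.6% of all genes called; the list was chosen with earlier results known and its difference from the members was not tested. TFE3 read 303, 285 and 341 with gedunin and 181 and 207 on DMSO 1 and 2, a rise of 0.67 ± 0.11 (limma adjusted p = 0.00208), and its second probe set rose by 0.82. All treated arrays of TFE3 were above both controls, and the array labelled DMSO 3 read 169. GPNMB, a glycoprotein of melanosomes and lysosomes known as a target of MITF, read 139, 132 and 126 against 82.8 and 75.5. GPNMB rose by 0.74 ± 0.09 (limma adjusted p = 4.90e-04).

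SESN1, a stress-induced sensor that restrains mTORC1, fell by 0.65 ± 0.11 on the log2 scale (limma adjusted p = 0.00309), from 540 and 576 to 348, 318 and 402. RRAGA, the Rag A GTPase, fell by 0.58 ± 0.08 on the log2 scale (limma adjusted p = 0.00121), from 1626 and 1662 to 1080, 1083 and 1127. The remaining called genes, named after their values were seen, were RRAGC (0.57), MITF (0.55), LAMTOR3 (0.53), RRAGD (0.42) and LAMTOR5 (-0.33). TFE3, MITF, GPNMB, RRAGA and SESN1 were called in every fit that left out 1 of the 5 arrays. RRAGC was lost without DMSO 2 (adjusted p = 0.113) and LAMTOR3 without DMSO 1 (0.0599). RRAGD held only without gedunin 1 and LAMTOR5 only without gedunin 3 (adjusted p up to 0.189 and 0.213). The genes not called were TFEC (0.20), FLCN (0.21), MTOR (0.12), RRAGB (-0.05), DEPTOR (-0.22) and LAMTOR2 (-0.26). TFEC (14.2 to 17.3) and MTOR (19.7 to 27.9) read below the array medians of 31.1 to 31.8 on all 5 arrays. FLCN (28.8 to 40.1) and MITF on DMSO 1 and 2 (32.3 and 31.0) read near those medians. Folds of such dim probe sets are compressed. With all 6 arrays limma called 0 of the 15, against 1.68% of all genes. There 6 of the 15 had an unadjusted limma p under 0.05, against 1625 of all 12165 genes. SESN1 had 0.81 with 6 arrays, since the array labelled DMSO 3 read 26.5.

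**Figure D4:**
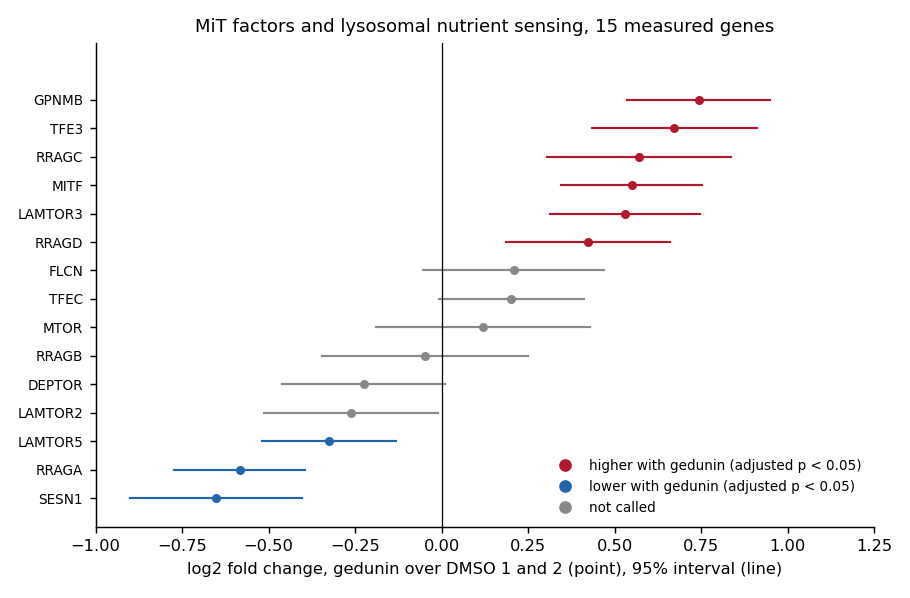
Log2 fold change, gedunin over DMSO 1 and 2 (points), with 95% confidence intervals (lines) for the 15 measured genes of the MiT and nutrient sensing list. The 6 red genes rose, from RRAGD (0.42) to GPNMB (0.74), and the 3 blue genes fell, down to SESN1 (-0.65).

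Among lysosomal genes outside the members, the share called was 14.3% of 14 further hydrolases and 6.67% of 15 further membrane proteins, against 17.6% of all genes. Of the hydrolases, 0 rose and 2 fell, with a median of -0.16. HYAL2, a hyaluronidase, fell by 1.13 ± 0.12 on the log2 scale (limma adjusted p = 2.15e-04), from 105 and 134 to 48.6, 55.7 and 58.5, and the alpha-fucosidase gene FUCA1 fell by 0.73 ± 0.14 (limma adjusted p = 0.00566). FUCA1 was lost without DMSO 2 (adjusted p = 0.0823). Of the membrane proteins, CLCN7, a chloride transporter of the lysosome, rose by 0.37 ± 0.10 (limma adjusted p = 0.0350) and 0 fell. CLCN7 was lost without DMSO 2 (adjusted p = 0.278), gedunin 1 (0.0976) or gedunin 2 (0.0777). The median of that list was 0.01.

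Scaling set part of these counts. Centring each array on GAPDH and ACTB moved the median of all genes to -0.19 and that of the members to -0.19, and then 2 members rose and 13 fell, with 31.1% of all genes called. Centring on the array median gave 5 higher and 4 lower members, with 17.2% of all genes called. With the array labelled DMSO 3 among the controls, limma called 0 of the 55 members and 1.68% of all genes (1.32% higher and 0.353% lower). An unadjusted limma p under 0.05 was found there for 5 members and for 1625 of all 12165 genes. The sign was opposite in 20 members and in 3259 of all genes.

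Many members read differently on the array labelled DMSO 3 than on the other controls. Of 55, 22 were at least 2-fold below the mean of DMSO 1 and 2 and 5 at least 2-fold above, against 12.9% and 9.22% of all genes, and the median log2 difference was -0.87 (0.01 over all genes). SCARB2 read 32.3 there and 573 and 663 on DMSO 1 and 2, the 1 member whose intensity was at least 8-fold below (2.01% of all genes), while CTSC and CTSZ were at least 8-fold above (2.33%). CTSB (7.72-fold), CTSL (6.30-fold), ATP6V0E2 (6.06-fold) and LAMP2 (5.09-fold) were lower too, and CTSF read 23.0 against 148 and 127. The 5 members at least 2-fold higher were CTSC, CTSZ, TFEB, CTSH and GLA. CTSH read 5524 against 1891 and 2059, and TFEB 146 against 30.7 and 28.0. Where the lower value lies near the array median, as for TFEB, CTSC, CTSZ, SCARB2 and CTSF, the ratio of intensities is no measured fold of RNA, and none is given. Of the V-ATPase genes, 6 of 17 were at least 2-fold below and 0 above. This is 1 array, so no test was made, and the part of cell type in these differences was not tested.

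**Figure D5:**
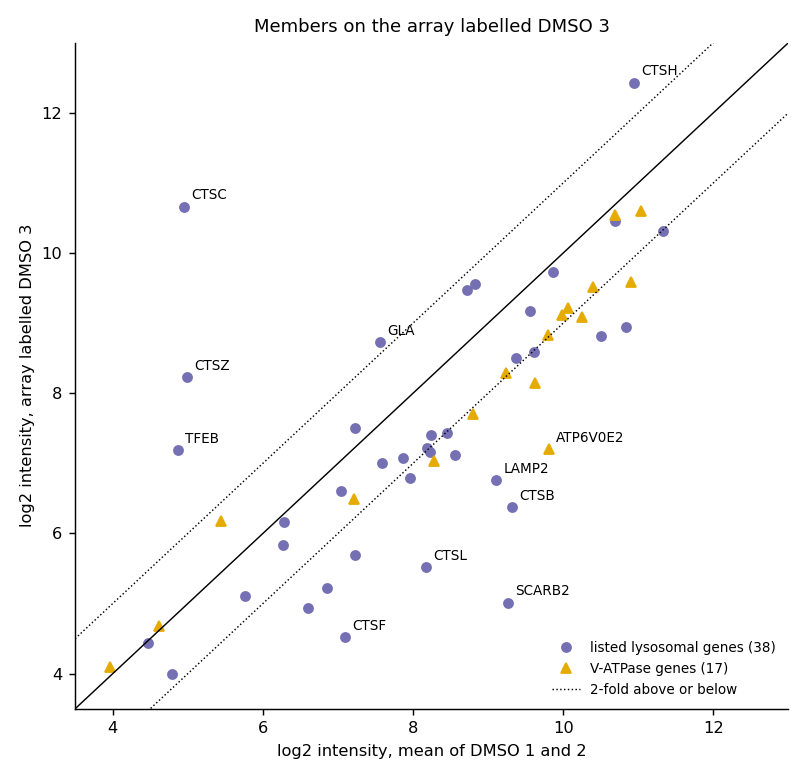
Log2 intensity of each member on the array labelled DMSO 3 (vertical) against the mean of DMSO 1 and 2 (horizontal), with circles for the 38 listed genes and triangles for the 17 V-ATPase genes; the solid line marks equality and the dotted lines a 2-fold difference. CTSC, CTSZ and TFEB lie far above the line and SCARB2 farthest below it.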

How the data were processed

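RNA of 6 cultures, all labelled LNCaP, was hybridised to Affymetrix arrays; the markers on the array labelled DMSO 3 go against that label. The authors deposited an RMA intensity for 22215 probe sets on every array; the method is named in the submitters' processing notes without a version. Which arrays were processed together is not given in the sources used here. Values were linear (lowest 11.0), so log2 was taken. Of the probe sets, 19724 named exactly 1 gene in the platform annotation, 568 named several and 1923 none; entrez identifiers of 19707 matched RefSeq and 0 symbols changed. A gene took its probe set with the highest mean over the 6 arrays. limma 3.58.1 (R 4.3.3, lmFit and eBayes) compared gedunin with DMSO 1 and 2, with no filter, and was tested on simulated data.

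The members, lists and tests were chosen with earlier results of these data known. All members were named, with array values for called ones and for 10 fixed genes (TFEB, LAMP1, LAMP2, CTSB, CTSD, CTSL, MCOLN1, NPC1, ATP6V1H, ATP6V0D1). Up to 4 called genes were named per further list, and values of other genes were printed after they were seen. Alternatives covered the arrays, replicate block, filter, centring, normalization, pseudocount, eBayes options, array weights, threshold and choice of probe set. Whether the replicate numbers pair the arrays could not be told. The number of arrays limits precision.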

Additional observations from a re-analysis of the deposited data

Results flagged for a closer look

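CTSC, which encodes the dipeptidyl peptidase that activates granule proteases, read 1622 on the array labelled DMSO 3. That array is outside the comparison, and the gene read 29.2 and 32.5 on DMSO 1 and 2 and 21.8 to 34.7 with gedunin. CTSZ, a carboxypeptidase, read 300.1 on that array against 31.0 and 32.9. The lower values of both genes lie near the array median, so no fold is given. A difference of at least 8-fold above DMSO 1 and 2 was seen for 2.33% of all genes. The 8 B cell and antigen presentation markers were among them, and the monocyte and macrophage markers were not (0 of 8). The part of cell type in these values was not tested.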

How the results depend on the processing

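The main counts were 2 higher and 3 lower of 38 listed genes, 1 higher and 1 lower of 17 V-ATPase genes, and 9 higher and 9 lower of 75 measured genes of the further lists, with a member median of -0.025. With all 6 arrays every one of these counts was 0, with and without the replicate block, the member median was 0.35, and IDUA (0.10) and ATP6V0E2 (0.44) turned in sign. The replicate block with 5 arrays left 3 members higher and 3 lower. With it 15.2% of all genes were called, against 17.6% in the main fit and 1.68% with 6 arrays and no block. Same-numbered arrays correlated in their deviations at -0.01, 0.05 and 0.03 over the 6 arrays. There the DMSO deviations were taken from a mean that includes the array labelled DMSO 3. Over 5 arrays the values were -0.03 and 0.04, where the deviations of DMSO 1 and 2 mirror each other. Neither set of values can tell whether the numbers pair the arrays. V-ATPase genes higher were 3 after the filter on dim probe sets, with centring on the array median, with log2 of the value plus 16, with trend and robust, and with array weights. Of the genes tested, 32.4%, 17.2%, 19.1%, 19.8% and 18.3% were called in these settings, in that order. Centring on GAPDH and ACTB gave 11 listed genes lower, 0 V-ATPase genes higher and 2 lower, and 5 higher and 28 lower in the further lists. With that centring 31.1% of all genes were called. Listed genes lower were 5 after a second quantile normalization, 6 with trend and robust, 6 with the mean of all probe sets (V-ATPase genes higher 2) and 0 at a threshold of 0.01 (V-ATPase 0 in each direction, further lists 4 lower). Called there were 17.7%, 19.8%, 19.1% and 9.92% of all genes, in that order. Without the _x_at and _s_at probe sets, V-ATPase counts were 0 and 0, and the further lists had 5 higher and 4 lower. In that fit 14.9% of the genes tested were called. Member medians were -0.0041 with centring on the array median, -0.19 on GAPDH and ACTB, -0.053 after the second quantile normalization, 0.0042 with the mean of probe sets and -0.0036 without the suffixed probe sets. Leaving out 1 array gave 0 to 2 listed genes lower, 0 to 1 V-ATPase genes higher and 0 to 2 lower, 5 to 8 higher and 4 to 8 lower in the further lists, and medians of -0.049 to -0.013. Without 1 gedunin array, 14.1% to 15.9% of all genes were called. The causes were not tested. TPP1 and GLA kept their direction in all 19 alternatives and lost the call only in the 2 fits with 6 arrays. The alternatives reuse the same arrays, and some, like the threshold of 0.01, could not change a direction. The 19 are therefore not independent checks.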

Other observations

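Genes that carry enzymes to the lysosome were called about as often as all genes. Of 15 measured genes of mannose 6-phosphate sorting, adaptors and retromer, 1 rose and 2 fell, or 20.0%, with a median log2 fold change of -0.06, against 17.6% of all genes called. GGA3, an adaptor that loads enzyme receptors at the Golgi, fell by 0.43 ± 0.10 on the log2 scale (limma adjusted p = 0.0194), from 106 and 129 to 85.7, 90.1 and 85.0. AP3B1, a subunit of the adaptor that feeds lysosome-related organelles, fell by 0.32 ± 0.09 (limma adjusted p = 0.0455), although its second probe set had -0.04. GGA2 rose by 0.32 ± 0.09 (limma adjusted p = 0.0461) on 1 of its 8 probe sets. GGA3 was lost without DMSO 2 (adjusted p = 0.189) or gedunin 1 (0.0544), and AP3B1 and GGA2 held only without gedunin 3 (adjusted p up to 0.193 and 0.292).

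Genes of fusion with the lysosome gave a like share. Of 16 measured, 1 rose and 2 fell, or 18.8%, with a median of -0.08, against 17.6% of all genes called. RAB9A is on this list, although it is a GTPase that returns enzyme receptors from late endosomes to the Golgi. RAB9A rose by 0.48 ± 0.10 (limma adjusted p = 0.00855), from 401 and 437 to 536, 597 and 623. FIG4, a phosphoinositide phosphatase, fell by 0.37 ± 0.09 on the log2 scale (limma adjusted p = 0.0163), and VAMP8, a SNARE of late endosomes, by 0.33 ± 0.09 (limma adjusted p = 0.0365). RAB9A was lost without DMSO 1 (adjusted p = 0.0960), FIG4 without DMSO 1 (0.0740) or DMSO 2 (0.121), and VAMP8 held only without gedunin 2 (adjusted p up to 0.231).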
